A study of Cavia porcellus with 12 samples.

Results

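The genes of the mitochondrial ribosome and of its translation factors were followed in liver mRNA of guinea pigs with nonalcoholic steatohepatitis (NASH) and of controls. They were taken by name from the 11896 human orthologue symbols of the deposited expression table. A symbol was included if it starts with MRPL or MRPS followed by a digit, or if it is TUFM, TSFM, GFM1, GFM2, MTIF2, MTIF3 or MTRF1. This gave 83 genes, namely 49 large-subunit symbols (MRPL), 27 small-subunit symbols (MRPS) and 7 translation factors. The rule uses names and no measured value, although the table itself lists only genes above a minimum total count. MRPL36, MRPS17 and MRPS28 were not analysed here, MRPL47 was present as the numbered copy MRPL47.1, and MRPL42 was present beside its numbered copy MRPL42.1.

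The animals were female Dunkin Hartley guinea pigs, which arrived at 10 weeks of age. The 6 controls received chow without sucrose or cholesterol and had neither NASH nor fibrosis. The 6 NASH animals received a high-fat diet that also held sucrose and cholesterol, and were chosen for bridging fibrosis. Both groups were kept on their diet for 25 weeks. Each library came from the left lateral lobe of 1 animal, the livers were not perfused, and animals are named here by their numbers (5, 10, 31, 32, 45 and 56 in controls, 2, 9, 11, 20, 41 and 65 in NASH). Diet and disease state go together in this design and cannot be told apart.

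Mitochondria keep a small genome of their own, and the proteins it encodes, all of them core subunits of the respiratory chain and ATP synthase, are made inside the organelle by a dedicated ribosome. The ribosomal RNAs come from mitochondrial DNA, whereas every ribosomal protein and translation factor is encoded in the nucleus, made in the cytosol and imported. Part of these proteins descend from bacterial ribosomal proteins and others were added during the evolution of the organelle. Hepatocytes are rich in mitochondria, and their oxidative metabolism draws on this machinery.

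The 12 libraries held between 16980274 and 33091460 counts. Levels are given as CPM (counts scaled to a common library total) after scaling by TMM (the trimmed mean of M-values), and differences as the log2 fold change of NASH over control from edgeR, whose adjusted p had to be under 0.05. The TMM factors ran from 0.804 to 0.875 in controls and from 1.12 to 1.24 in NASH, without overlap. Which scaling is right cannot be settled from these data, and the sign of 67 of the 83 genes depends on it. Over all genes the log2 fold change had a median of 0.00 with TMM and of 0.48 when library size alone was used, and every difference below is therefore a difference relative to the typical gene. Because levels were not divided by transcript length, they are compared between animals and not between genes. The counts of these genes in an animal ran from 17 (MRPL42 in Control 10) to 4797, and outside MRPL42 the lowest count was 70.

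Of the 83 genes, 58 were lower in NASH, 0 were higher and 25 did not pass the test with TMM scaling, whereas with library size alone 3 were lower and 25 higher, 8 of which had been called lower. Over all 11896 genes, 26% were called lower and 27.9% higher (edgeR adjusted p under 0.05) with TMM scaling, and 7.66% lower and 63.9% higher with library size alone; every count given below for a list under either scaling stands beside these shares. At an unadjusted p under 0.05 (edgeR), 63 of the 83 genes were lower and 0 higher, a count that was not made over all genes. DESeq2 called 60 of the 83 lower and 0 higher, beside 3244 lower and 3439 higher of all 11896 genes. The median log2 fold change of the 83 genes was -0.32 (quartiles -0.43 and -0.21) beside 0.00 over all genes with TMM scaling. With library size alone it was 0.15 beside 0.48, so that the distance to the typical gene was -0.32 in both. The sign was negative for 80 of the 83 genes with TMM scaling and for 13 with library size alone, and 80 lay below the median of all genes under either scaling. A change of scaling moves all genes by nearly the same amount. The equal distance and the equal number below the median therefore follow from it and are no separate result. In 26 of the 83 genes every NASH animal lay below every control, which held for 15.3% of all genes, and in 0 of the 83 every NASH animal lay above every control, which held for 18.4%.

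**Figure D1:**
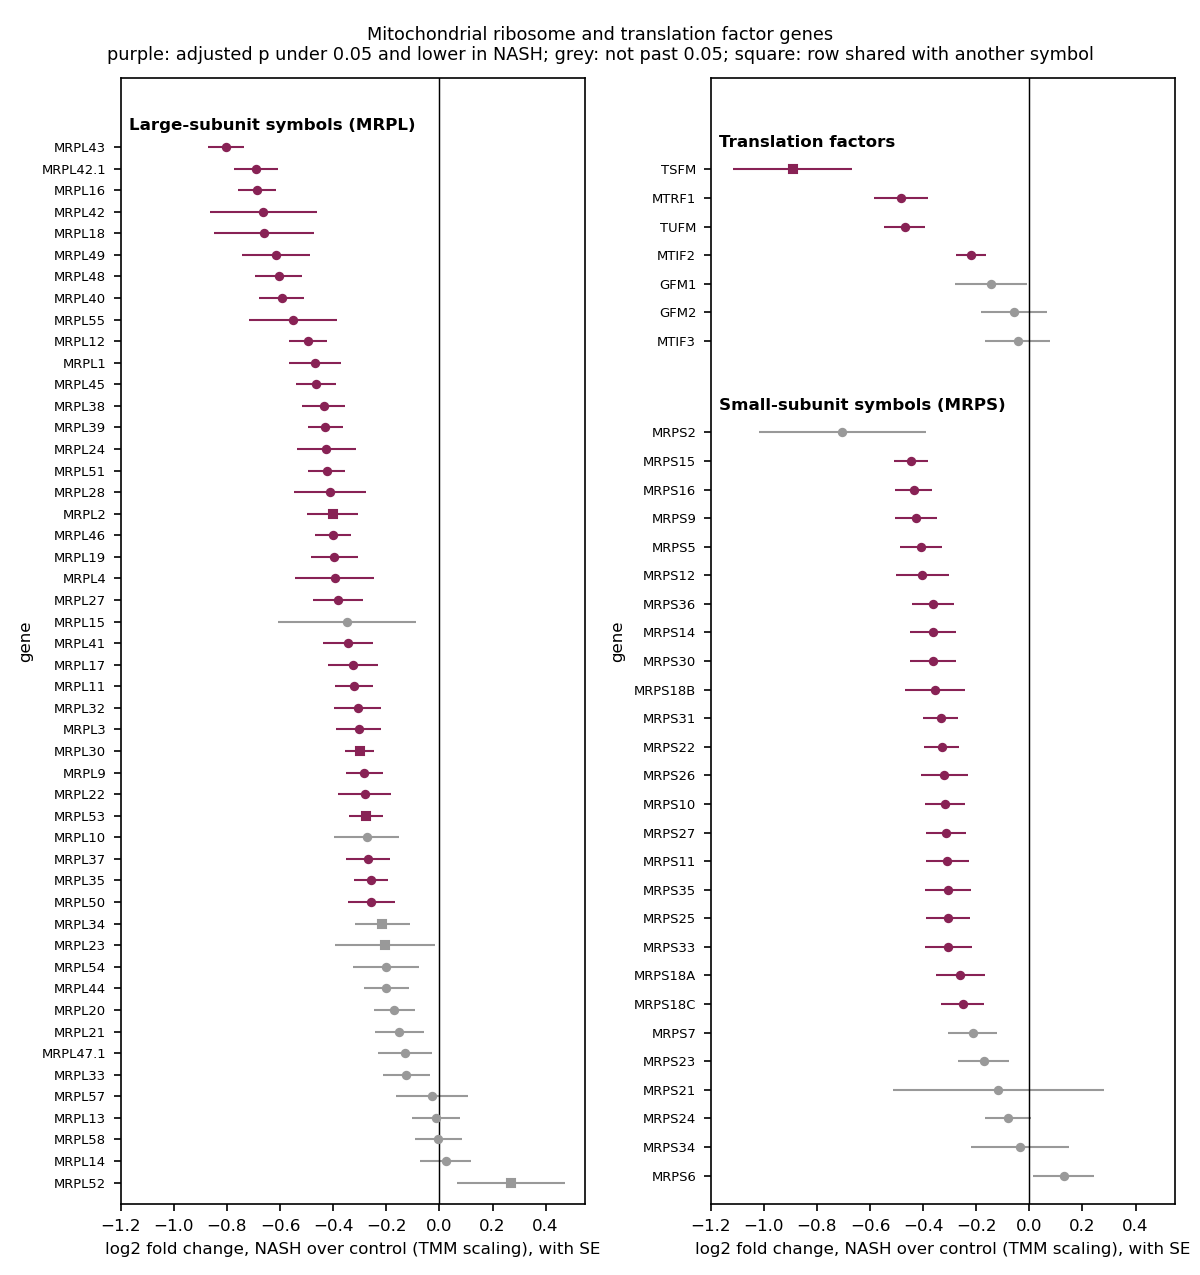
Log2 fold change of NASH over control (horizontal axis, TMM scaling) for each of the 83 genes, with bars for the standard error (SE) of the edgeR fit on 6 animals per group; purple marks genes called lower, grey genes that did not pass, and squares genes that share their count row with another symbol. All but 3 points (MRPL52, MRPS6 and MRPL14) lie left of 0, while with library size alone the median of the 83 genes is 0.15.

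Among the large-subunit proteins, 34 of 49 were lower with TMM scaling and the median log2 fold change was -0.32, whereas with library size alone 3 were lower, 15 higher and the median was 0.15. The 5 with the lowest log2 fold change were MRPL43, MRPL42.1, MRPL16, MRPL42 and MRPL18. MRPL43, a protein with no bacterial counterpart, had 47.9 CPM in the lowest control, a control median of 54.4 and 60.7 in the highest, and in NASH it ran from 29.5 over a median of 31 to 32.7. The highest NASH animal was thus well below the lowest control. Its log2 fold change was -0.80 ± 0.07 (SE, n = 6 per group, edgeR adjusted p = 1.02e-06), and it stayed negative with library size alone (-0.33, adjusted p = 0.00112).

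MRPL16, the homologue of bacterial L16, ran from 51.0 to 62.2 CPM in controls (median 57.6) and from 30.8 to 39.9 in NASH (median 35.7). No NASH animal reached the control range, and the log2 fold change was -0.69 ± 0.07 (edgeR adjusted p = 6.76e-06). MRPL42.1 ran from 35.8 to 49.1 CPM in controls (median 44.3) and from 24.2 to 29.6 in NASH (median 27.2), again without overlap, with a log2 fold change of -0.69 ± 0.08 (adjusted p = 1.81e-05). With library size alone these stayed negative, at -0.21 for MRPL16 and -0.22 for MRPL42.1, and together with MRPL43 they were the 3 genes still called lower under that scaling. The copy listed as MRPL42 rested on 17 to 40 counts per animal, between 0.872 and 1.68 CPM in controls and between 0.700 and 1.02 in NASH. Its groups overlapped, and its log2 fold change was -0.66 ± 0.20 (edgeR adjusted p = 0.0134). Reads that map to several places were removed before counting, so the split of reads between the copies of MRPL42 is uncertain.

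MRPL18 belongs to the central protuberance, the crest of the large subunit that faces the tRNAs. It ran from 33.9 to 80.5 CPM in controls (median 54.1) and from 29.1 to 45.1 in NASH (median 35.9). Control 31, at 33.9, lay within the NASH range, and the remaining controls were at 50.6 or above. Its log2 fold change was -0.66 ± 0.19 (edgeR adjusted p = 0.0102). Of the same crest, MRPL38, MRPL40, MRPL46 and MRPL48 were listed beside it, and in each of these the groups did not overlap. All 5 of this list were called lower with TMM scaling, with log2 fold changes from -0.66 to -0.40 and a median of -0.59, whereas with library size alone 0 were lower and 0 higher, and the values ran from -0.19 to 0.07. The list does not hold every protein of that region and its count does not stand for the whole crest: MRPL27 was called lower with overlapping groups (log2 fold change -0.38 ± 0.09, edgeR adjusted p = 0.00388), and MRPL58, described further on, did not pass.

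The stalk, which recruits elongation factors to the ribosome, was represented by MRPL10, MRPL11 and MRPL12. MRPL12, which also binds the mitochondrial RNA polymerase, ran from 50.8 to 66.7 CPM in controls and from 37.7 to 43.1 in NASH. Its log2 fold change was -0.50 ± 0.07 (edgeR adjusted p = 6.94e-05). MRPL11 was lower as well, while MRPL10 did not pass (log2 fold change -0.27 ± 0.12, edgeR adjusted p = 0.078), and with library size alone none of the 3 passed (-0.02 to 0.20). Around the exit of the peptide tunnel, 4 of 5 proteins matched by their plain symbols were lower with TMM scaling, with log2 fold changes from -0.47 to -0.20, whereas with library size alone 0 were lower and 0 higher (0.0046 to 0.28). MRPL47 also sits there and was present only as MRPL47.1, which those counts leave out: it did not pass with TMM scaling (-0.13 ± 0.10, edgeR adjusted p = 0.295) and was called higher with library size alone (0.35, adjusted p = 0.00826). The lowest of these was MRPL45, which anchors the ribosome to the inner membrane where new proteins are inserted. It ran from 39.1 to 47.3 CPM in controls and from 28.6 to 35.8 in NASH, and its log2 fold change was -0.47 ± 0.07 (edgeR adjusted p = 0.000186). Of the 4 called lower, MRPL17 and MRPL22 no longer passed with every row of at least 1 count tested. MRPL22 also lost its call with upper-quartile factors and when Control 31, 32 or 45 or NASH 2, 9 or 41 was left out.

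At the upper end of the large subunit stood MRPL52, MRPL14 and MRPL58, none of which passed the test with TMM scaling, whereas with library size alone all 3 were called higher (log2 fold changes of 0.75, 0.49 and 0.47, edgeR adjusted p = 0.00582, 0.00121 and 0.000751). MRPL58 is a peptidyl-tRNA hydrolase that rescues stalled ribosomes and is built into the large subunit; it ran from 19.4 to 26.4 CPM in controls and from 20.4 to 26.6 in NASH, with a log2 fold change of -0.00 ± 0.09 (edgeR adjusted p = 0.971). MRPL14, the homologue of bacterial L14, ran from 21.3 to 31.4 CPM in controls and from 23.2 to 27.6 in NASH (log2 fold change 0.02 ± 0.10, adjusted p = 0.853). For MRPL58 the ranges nearly coincided, and for MRPL14 the NASH animals lay within the control range, whose upper end was Control 31 at 31.4 CPM beside 21.3 to 25.0 in the other controls. MRPL52 had 54.6 to 152 CPM in controls and 90.5 to 150 in NASH, a log2 fold change of 0.27 ± 0.20 (adjusted p = 0.282). Its count row also carries the symbol MMP14, a membrane-bound matrix metalloproteinase, so that reads of the pair cannot be told apart. Without Control 10, its highest control, MRPL52 had a log2 fold change of 0.47 and passed the test (edgeR adjusted p = 0.0274).

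A further 5 large-subunit symbols share their count row with another symbol. MRPL2 (with AL355385.2), MRPL30 (with AC079447.1) and MRPL53 (with CCDC142) were called lower, with log2 fold changes of -0.40, -0.30 and -0.28 under TMM scaling; with library size alone the values were 0.07, 0.17 and 0.20, and MRPL30 and MRPL53 were called higher (edgeR adjusted p = 0.0135 and 0.0119). MRPL34 (with DDA1) and MRPL23 (with AC004556.3) did not pass, at -0.22 (edgeR adjusted p = 0.0973) and -0.20 (adjusted p = 0.379). Without the 7 genes on shared rows, 54 of 76 genes were lower, the median was -0.32 under TMM scaling, and 0 were higher; with library size alone 3 were lower and 22 higher.

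Among the small-subunit symbols, 20 of 27 were lower with TMM scaling and the median log2 fold change was -0.32, whereas with library size alone 0 were lower, 6 higher and the median was 0.15. The 5 lowest were MRPS2, MRPS15, MRPS16, MRPS9 and MRPS5, all with bacterial counterparts. MRPS15 ran from 47.9 to 58.2 CPM in controls (median 52.8) and from 36.9 to 41.4 in NASH (median 38.9). The groups did not overlap, and the log2 fold change was -0.45 ± 0.06 (edgeR adjusted p = 7.62e-05). MRPS16 ran from 33.4 to 38.6 CPM in controls and from 23.6 to 29.0 in NASH (log2 fold change -0.44 ± 0.07, adjusted p = 0.000209). MRPS9 had control levels of 17.6 to 21.9 CPM and NASH levels of 13.5 to 15.7, and MRPS5 had 27.3 to 36.9 and 22.5 to 24.9. Neither of these genes overlapped between the groups, and their log2 fold changes were -0.43 ± 0.08 and -0.41 ± 0.08 (edgeR adjusted p = 0.000483 and 0.00075).

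MRPS2 had the lowest log2 fold change of the small subunit (-0.71 ± 0.31) but did not pass the test (edgeR adjusted p = 0.0756). Control 32, at 8.31 CPM, stood apart from the other controls at 18.5 to 23.6 CPM, and in NASH animals 2 and 9, at 5.68 and 4.88 CPM, stood below the others at 12.7 to 16.7. Without Control 32 the log2 fold change was -0.85 and the adjusted p 0.0253. It also passed without NASH 65 (-0.86, adjusted p = 0.0421) and with DESeq2 (adjusted p = 0.0465).

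At the upper end of the small subunit were MRPS6, MRPS34 and MRPS24, and none passed with TMM scaling; with library size alone MRPS6 (0.61, edgeR adjusted p = 7e-04) and MRPS24 (0.39, adjusted p = 0.00406) were called higher. MRPS6, the homologue of bacterial S6, ran from 13.7 to 20.9 CPM in controls and from 17.4 to 23.1 in NASH (log2 fold change 0.13 ± 0.11, edgeR adjusted p = 0.364). MRPS34, which has no bacterial counterpart, ran from 10.4 to 15.9 CPM in controls and from 6.29 to 14.9 in NASH (-0.03 ± 0.18, adjusted p = 0.886). MRPS24, related to bacterial S3, ran from 15 to 19.6 and from 14.7 to 18.9 CPM (-0.08 ± 0.09, adjusted p = 0.461). In each of the 3 the groups overlapped.

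Some symbols name proteins that sit elsewhere than the name says. MRPS30 and MRPS18A are found in the large subunit in structures of the mammalian ribosome, and MRPS36 is now counted as a subunit of the oxoglutarate dehydrogenase complex of the citric acid cycle. MRPS30 ran from 19.5 to 26.7 CPM in controls and from 16.6 to 19.8 in NASH, so that only Control 10 lay within the NASH range, and its log2 fold change was -0.36 ± 0.09 (edgeR adjusted p = 0.00341). MRPS36 had 31.7 to 40.5 CPM in controls and 25.0 to 31.9 in NASH (log2 fold change -0.36 ± 0.08, adjusted p = 0.00163). MRPS18 exists as a trio of paralogues: MRPS18A, MRPS18B and MRPS18C had log2 fold changes of -0.26 ± 0.09, -0.36 ± 0.11 and -0.25 ± 0.08 (edgeR adjusted p = 0.0304, 0.0184 and 0.0178). All were called lower with TMM scaling, and with library size alone the values of the trio were 0.21, 0.12 and 0.22 and MRPS18C was called higher (edgeR adjusted p = 0.0282). With every row of at least 1 count tested none of the trio passed (edgeR adjusted p = 0.208, 0.101 and 0.159), and with upper-quartile factors none did (0.111, 0.0571 and 0.0863). The call of MRPS18A was also lost, with adjusted p between 0.0609 and 0.071, when Control 10, 31 or 32 or NASH 9, 11 or 20 was left out.

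The ribosomal proteins were also sorted by descent, leaving out MRPL47.1, MRPS18A, MRPS30 and MRPS36; MRPL47 has a bacterial homologue, and MRPL47.1 was not called with TMM scaling. MRPS18B, although related to bacterial S18, was counted among those without a homologue, since MRPS18C stood for that family. Of 42 with a bacterial homologue, 28 were lower and the median log2 fold change was -0.32 with TMM scaling, and of 30 without a homologue 23 were lower and the median was -0.33; with library size alone 1 and 2 were lower, 12 and 8 higher, and both medians were 0.15. In the large subunit the TMM-scaled median was -0.31 for the 28 proteins with a homologue and -0.41 for the 20 without. In the small subunit it was -0.34 for 14 and -0.31 for 10. The difference between these classes was not tested.

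The relation of the subunits to each other does not depend on the library scaling, since both sums come from the same animal. The summed level of the large-subunit symbols was 1580 ± 51.8 CPM in controls and 1250 ± 49.3 in NASH (SD, n = 6 each), and that of the small-subunit symbols 787 ± 50 and 637 ± 29.4. The ratio of large to small was 2.0 ± 0.07 in controls (1.92 to 2.09) and 1.97 ± 0.05 in NASH (1.90 to 2.02). The groups overlapped over most of their range. With MRPS30 and MRPS18A moved to the large subunit and MRPS36 left out, the ratio was 2.33 ± 0.08 and 2.28 ± 0.07. Without the genes on shared rows, among them MRPL52, it was 1.65 ± 0.05 in controls (1.596 to 1.717) and 1.55 ± 0.05 in NASH (1.457 to 1.606), with NASH 9 and 65, at 1.597 and 1.606, just above the lowest control (32).

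**Figure D2:**
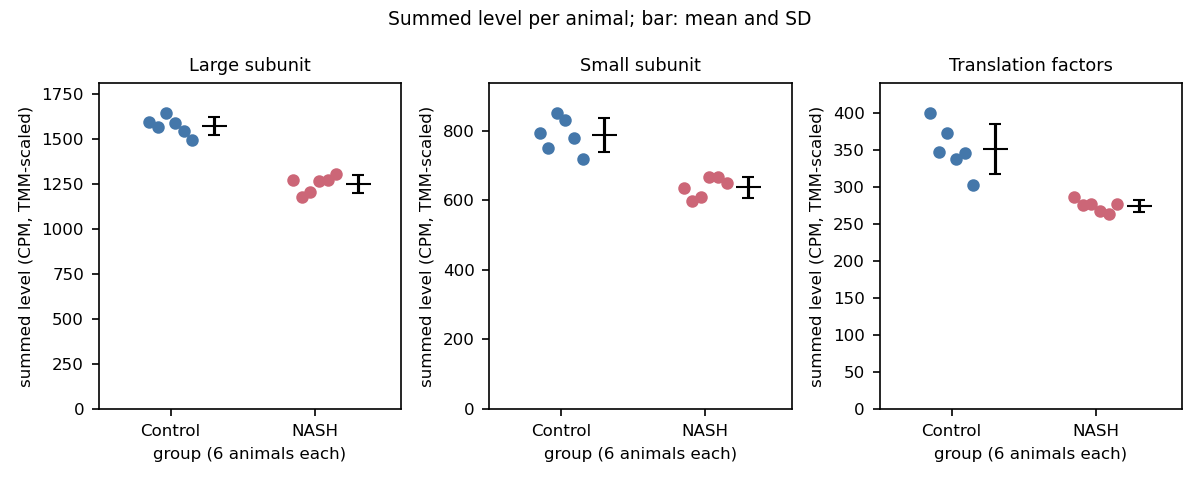
Summed level in CPM (vertical axis, TMM scaling, from 0) of the large-subunit symbols, the small-subunit symbols and the translation factors in each of 6 controls (blue) and 6 NASH animals (red), with the mean and SD as a bar. Every NASH animal lies below every control in each panel under TMM scaling, whereas with library size alone the sum over the 83 genes is higher in NASH by 0.15 on the log2 scale.

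The translation factors lead the ribosome through initiation, elongation and termination, and 4 of 7 were lower with TMM scaling, at a median log2 fold change of -0.22, whereas with library size alone 0 were lower, 4 higher and the median was 0.26. TUFM, the elongation factor EF-Tu that delivers aminoacyl-tRNAs, ran from 82.8 to 114 CPM in controls (median 97.6) and from 66.4 to 74.5 in NASH (median 72.3). The groups did not overlap. Its log2 fold change was -0.47 ± 0.08 (edgeR adjusted p = 0.000235), and it was 0.01 with library size alone.

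TSFM, the factor EF-Ts that recharges EF-Tu, had the lowest log2 fold change of all 83 genes (-0.89 ± 0.22, edgeR adjusted p = 0.0046). It ran from 33.1 to 86.0 CPM in controls (median 65) and from 19.1 to 39.8 in NASH (median 36.6). Control 32, at 33.1 CPM, lay within the NASH range, the other controls were at 52.6 or above, and NASH 41 was the lowest at 19.1. TSFM shares its count row with EEF1AKMT3, a lysine methyltransferase of the cytosolic elongation factor, and reads of the pair cannot be told apart. With library size alone its log2 fold change was -0.42 (adjusted p = 0.107).

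MTRF1, a release factor, ran from 12.2 to 17.8 CPM in controls (median 14.3) and from 9.46 to 12.4 in NASH (median 10.6), so that the ranges met only at Control 45 and NASH 11. Its log2 fold change was -0.48 ± 0.10 (edgeR adjusted p = 0.00145). MTIF2, the initiation factor that brings the formylated initiator tRNA, ran from 45.4 to 51.1 CPM in controls and from 38.7 to 43.6 in NASH without overlap. Its log2 fold change was -0.22 ± 0.06 (edgeR adjusted p = 0.0048), and with library size alone it was called higher (0.26, adjusted p = 0.00191); with every row of at least 1 count tested it no longer passed (-0.13, adjusted p = 0.119). The remaining factors did not pass. GFM1, which translocates the ribosome along the mRNA, ran from 65.7 to 117 CPM in controls and from 64.97 to 83.4 in NASH, with Control 5 at 117 and the other controls at 80.7 or below (log2 fold change -0.14 ± 0.14, edgeR adjusted p = 0.392). GFM2, which splits the subunits after termination, had 23.2 to 43.4 CPM in controls and 29.2 to 33.7 in NASH (-0.06 ± 0.12, adjusted p = 0.713). MTIF3, which keeps the subunits apart before initiation, had 11.5 to 18.9 and 11.8 to 18.1 CPM (-0.04 ± 0.12, adjusted p = 0.782).

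The machinery around the ribosome was described with lists of well-known genes. Of 5 ribosomal proteins that carry other names, 1 was lower with TMM scaling (DAP3 of the small subunit, log2 fold change -0.29), 0 were higher (4 with library size alone), and the median was -0.13. The highest was PTCD3, on a row shared with SNORD94, at 0.02. Among 6 release, recycling and initiator-tRNA genes, 4 were lower and 0 higher with TMM scaling (0 and 1 with library size alone), and the median was -0.40. The lowest was MTFMT, which formylates the initiator tRNA, at -0.56 ± 0.08 (edgeR adjusted p = 7.72e-05), and the highest was the recycling factor MRRF at 0.48 ± 0.37 (adjusted p = 0.289).

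Of 26 assembly GTPases, helicases and rRNA-modifying enzymes, 13 were lower and 1 higher with TMM scaling (1 lower and 12 higher with library size alone), at a median of -0.29. The lowest was MRM1, a methyltransferase of the large ribosomal RNA, with a log2 fold change of -0.97, on a row shared with DHRS11. The highest was the GTPase MTG2 at 0.37 ± 0.12 (edgeR adjusted p = 0.0179). The tRNA synthetases and the glutaminyl-tRNA amidotransferase stood closer to the typical gene: of 20, 5 were lower and 2 higher with TMM scaling (0 and 14 with library size alone), and the median was -0.10. The lowest was GATC, a subunit of the amidotransferase on a row shared with AL021546.1, at -0.48 ± 0.11 (edgeR adjusted p = 0.00313). The highest was GARS1, which also serves the cytosol, at 0.49 ± 0.10 (adjusted p = 0.00113). The summed level of these 20 genes was 434 ± 24.3 CPM in controls and 428 ± 6.32 in NASH.

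Upstream of the ribosome, 8 of 20 genes of mitochondrial transcription and RNA maturation were lower and 0 higher with TMM scaling (0 and 10 with library size alone), at a median of -0.24. They ran from the oligoribonuclease REXO2 at -0.59 ± 0.11 (edgeR adjusted p = 0.000552) to TBRG4 at 0.16 ± 0.09 (adjusted p = 0.141). Of 9 genes for membrane insertion and translational activation, 3 were lower and 0 higher with TMM scaling (1 and 5 with library size alone), from CMC1, an early partner of the newly made COX1 protein, at -0.75 ± 0.10 (adjusted p = 5.58e-05) to UQCC2 at 0.06 ± 0.12 (adjusted p = 0.712).

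The mRNAs that the ribosome translates, and the nuclear-encoded partners of their products, had lower median log2 fold changes than the 83 genes. The mRNAs encoded by mitochondrial DNA were measured by 12 symbols on 10 count rows, all 12 lower with TMM scaling, at a median log2 fold change of -0.85, and 8 were still lower with library size alone (median -0.37). They ran from MT.CO2 at -0.995 ± 0.159 (edgeR adjusted p = 0.000178) to MT.CO1 at -0.32 ± 0.13 (adjusted p = 0.0488). The call of MT.CO1 was lost with RLE factors (adjusted p = 0.0509), upper-quartile factors (0.111) and limma-voom (0.056), and its value was 0.16 with library size alone. Of 33 nuclear-encoded subunits of complex I, the largest respiratory complex, 29 were lower and 0 higher with TMM scaling (6 and 4 with library size alone), at a median of -0.52. They ran from NDUFC2, on a row shared with NDUFC2.KCTD14, at -0.81 to NDUFV2 at -0.11. The sum of the 83 genes was 1.04 ± 0.03 times that of complex I in controls (0.997 to 1.07) and 1.19 ± 0.03 times in NASH (1.15 to 1.22). Against the mitochondrial mRNAs it was 0.336 ± 0.061 in controls (0.228 to 0.394) and 0.434 ± 0.026 in NASH (0.401 to 0.479). Both ratios are free of the library scaling, and in both every NASH animal lay above every control. The lowest control in the second ratio was Control 5, whose mitochondrial mRNAs summed to 12260 CPM beside 7121 to 8064 in the other controls.

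**Figure D3:**
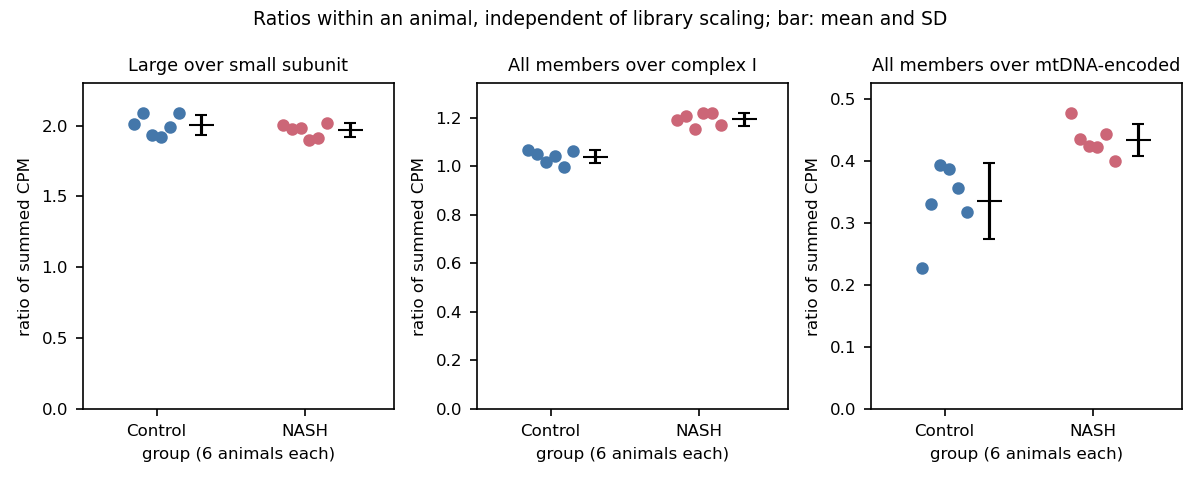
Ratio of summed CPM within each of 6 controls (blue) and 6 NASH animals (red), with the mean and SD as a bar, for the large over the small subunit, for all 83 genes over the complex I subunits and for all 83 genes over the mRNAs encoded by mitochondrial DNA. The groups overlap near 2 in the first panel, and all NASH animals lie above all controls in the others (1.15 to 1.22 against 0.997 to 1.07, and 0.401 to 0.479 against 0.228 to 0.394).

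**Figure D4:**
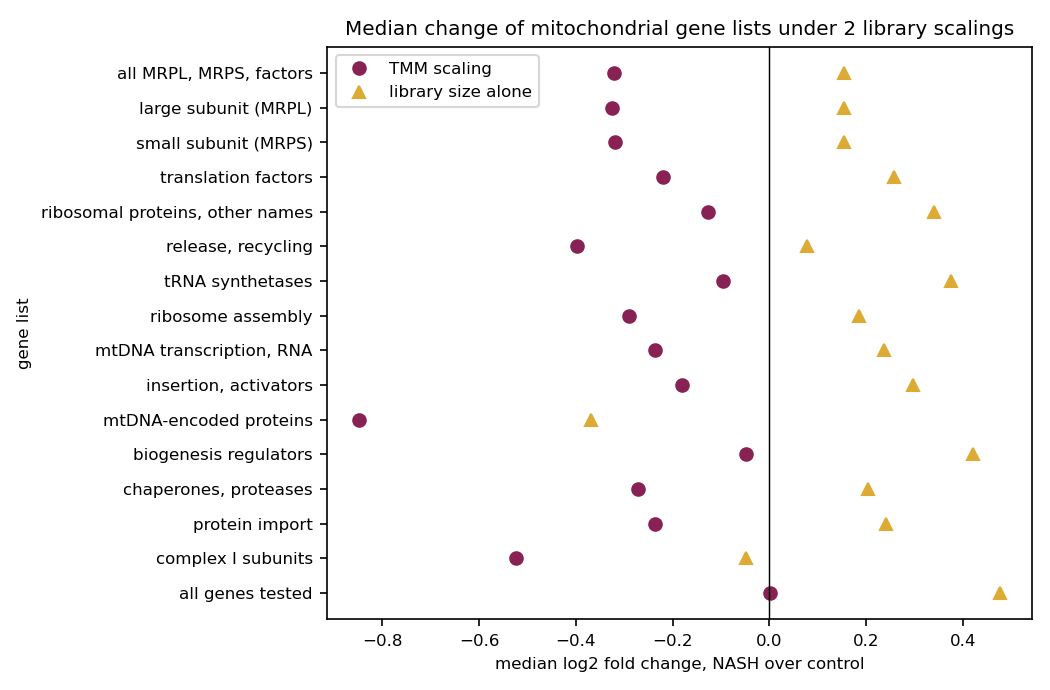
Median log2 fold change of NASH over control (horizontal axis) of the 83 genes, their classes and the other mitochondrial gene lists, with TMM scaling (circles) and with library size alone (triangles). Library size alone shifts every list to the right along with the median of all genes (0.00 to 0.48), which turns the sign of every mitochondrial list shown except complex I and the mitochondrially encoded mRNAs.

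The animals of a group differed little in most of these genes. The standard deviation (SD) of log2 CPM within groups had a median of 0.146 over the 83 genes, beside 0.223 over all genes. This SD depends on the number of counts, and the 2 sets were not matched for it. Animals at the end of a group's range were so in many of the genes. In Control 31, 65 of 83 genes were above their own control mean, and in Control 56, 61 were below it, and these animals had the highest and the lowest summed level of the controls (2874 and 2515 CPM). In NASH 9, 63 genes were below their NASH mean and in NASH 65, 61 were above it, at summed levels of 2049 and 2236 CPM, the lowest and highest of that group. The lowest control was thus still above the highest NASH animal with TMM scaling, an order that library size alone turned on average (log2 ratio of the group means -0.33 with TMM and 0.15 with library size alone).

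A few genes did not share this even behaviour, and they are named here after their values were seen. In 9 genes the SD within groups was over 0.3, as it was in 4100 of all 11896 genes. The 9 were MRPS21 (0.832), MRPS2 (0.641), MRPL15 (0.552), TSFM (0.445), MRPL52 (0.381), MRPL23 (0.369), MRPS34 (0.363), MRPL18 (0.362) and MRPL55 (0.305). MRPS21 ran from 8.08 CPM in Control 56 to 50.2 in Control 31, and from 14.2 in NASH 65 to 45.3 in NASH 41. MRPL15 was at 19.7 CPM in Control 5 beside 52.0 to 58.1 in the other controls, and at 19.1 in NASH 11 beside 39.9 to 44.8 in the other NASH animals. A single low animal in each group thus set the spread of MRPL15, whose log2 fold change of -0.35 ± 0.26 did not pass (edgeR adjusted p = 0.278). It passed when Control 5 was left out.

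**Figure D5:**
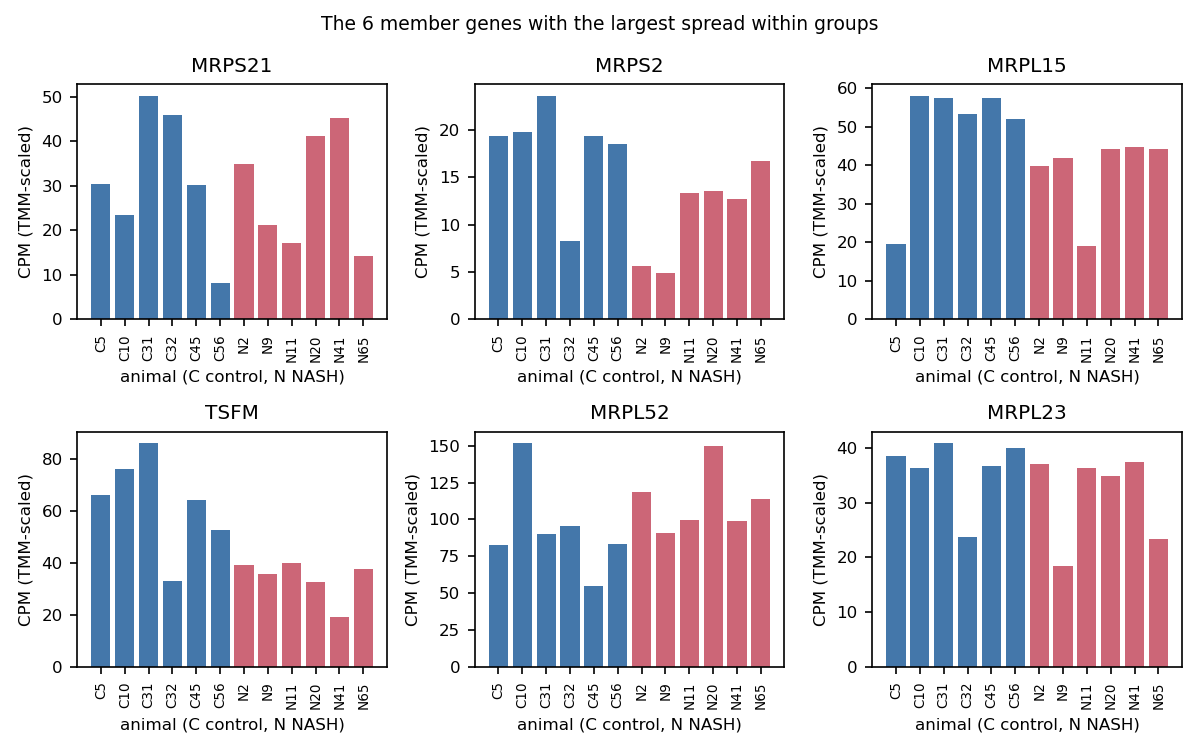
Level in CPM (vertical axis, TMM scaling, from 0) in each animal for the 6 genes with the largest SD within groups; C marks controls (blue) and N NASH animals (red), with the animal number. The low bars of Control 5 and NASH 11 for MRPL15, of Control 56 for MRPS21 and of Control 32 for MRPS2, TSFM and MRPL23 stand apart from the bars of the other animals of their group or lie at the group's lower end.

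Markers of several liver cell types also differed between the groups, in either direction. In bulk liver, fewer cells of a type and less RNA per cell cannot be told apart. Of 10 hepatocyte markers found, 9 were lower with TMM scaling and 5 were still lower with library size alone; their summed level ran from 117700 to 150400 CPM in controls and from 49290 to 79880 in NASH. Cholangiocyte markers were higher in 5 of 7 genes, with sums of 326.5 to 394.3 CPM in controls and 521.5 to 977.8 in NASH. Stellate cell markers were higher in 8 and lower in 1 of 11 (748.8 to 915.8 and 1623 to 3268 CPM), the lower one being LRAT (log2 fold change -0.57, edgeR adjusted p = 0.00082), which stores retinol in quiescent stellate cells. Macrophage markers were higher in 4 and lower in 1 of 10 (414.2 to 736.8 and 1092 to 1439 CPM), with TREM2, near 0 in controls, among the higher and the scavenger receptor MARCO (-1.27, adjusted p = 0.00364) the lower. Lymphocyte markers were higher in 5 and lower in 1 of 10, and endothelial markers higher in 3 and lower in 1 of 9, with sums that overlapped between the groups. The part of these shifts in the lower levels of the 83 genes was not tested.

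Erythroid markers were higher in all 5 genes found, and the NASH animals 41 and 65 stood apart from the rest, at 4598 and 3322 CPM beside 435.9 to 733.5 in the other NASH animals and 57.41 to 172.4 in controls. Without these animals, 58 of the 83 genes were lower and 0 higher with TMM scaling, and the median log2 fold change was -0.36 beside -0.005 over all genes. The shares of all genes called were not counted for this smaller comparison. Of the 58 genes called in the full comparison, 54 were called there too, and MRPS2 (-0.96, edgeR adjusted p = 0.0445), MRPL34 (-0.32, adjusted p = 0.0298), MRPL44 and MRPL54 were added.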

How the data were processed

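The deposited counts are raw, per StringTie locus or Ensembl gene; the authors made them with Trimmomatic 0.38.0, HISAT2 2.1.0 on Cavpor3.0, removal of multimapped reads and StringTie 1.3.6, which counts merged loci together. Use of strand in counting is not given in the sources used here. The authors also deposited log2 values (rlog of DESeq2) under human orthologue symbols, and symbols were joined to count rows by repeating that transformation. The 11896 symbols came from 11031 rows, and the 83 genes from a row each, 7 of these shared with a symbol outside the set.

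The main test was the quasi-likelihood test of edgeR 4.0.16 in R 4.3.3 (TMM factors, total of the count table as library size, robust fit, Benjamini-Hochberg adjustment over all 11896 symbols). The SE was taken as the size of the change divided by the root of F, and log2 CPM used a prior count of 2. Groups and animal numbers come from the sample labels, which give no batch. Alternatives were RLE and upper-quartile factors, library size alone, DESeq2 1.42.0, limma-voom (limma 3.58.1), filterByExpr, every row with at least 1 count, a threshold of 0.01, rlog values and each animal left out; leaving out NASH 41 and 65 together was chosen after seeing the data. The procedure was run on simulated counts in which as many genes were raised as lowered, which cannot test the choice of scaling. Plots were made in matplotlib 3.10.9 (Python 3.11.15).

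Values are given for the 7 factors, MRPS30, MRPS36, the MRPS18 paralogues, the 5 lowest and 3 highest genes of each subunit, genes on shared rows, and the lowest and highest gene of every other list; MRPL15 and MRPS21 were added after their values were seen. Genes and lists were chosen with earlier results of these data known. No sequence or coordinate is given, since the reference table used for names has another assembly (mCavPor4.1).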

Additional observations from a re-analysis of the deposited data

Results flagged for a closer look

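In 13 of the 166 groups of 6 animals formed by the 83 genes, 1 animal stood apart from its group by Dixon's criterion, which chance alone reaches in about 1 in 20 groups. Low in controls were MRPS2 at 8.31 CPM in animal 32 (others 18.5 to 23.6), MRPL23 at 23.7 CPM in animal 32 (others 36.3 to 40.9) and MRPL15 at 19.7 CPM in animal 5 (others 52.0 to 58.1). High in controls were GFM1 at 117 CPM in animal 5 (others 65.7 to 80.7) and MRPL14 at 31.4 CPM in animal 31 (others 21.3 to 25.0). Low in NASH were MRPL15 at 19.1 CPM in animal 11 (others 39.9 to 44.8), TSFM at 19.1 CPM in animal 41 (others 32.5 to 39.8), MRPL50 at 26.5 CPM in animal 2 (others 29.6 to 30.6), MRPL28 at 18.6 CPM in animal 2 (others 23.0 to 24.5), MRPL21 at 7.27 CPM in animal 9 (others 9.21 to 10.1) and MRPL13 at 9.96 CPM in animal 9 (others 12.6 to 14.0). High in NASH were MRPL4 at 12.6 CPM in animal 2 (others 7.46 to 8.26) and MRPL47.1 at 11.6 CPM in animal 20 (others 8.91 to 9.84). MRPL15 is the gene with an animal apart in both groups.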

How the results depend on the processing

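The number of genes called lower (58) was 50 with upper-quartile factors, 60 with DESeq2, 58 with RLE factors, limma-voom and filterByExpr, 44 at a threshold of 0.01, and 55 to 60 with an animal left out; genes called higher were 0 to 1 with an animal left out (MRPL52 without Control 10). Over all genes, 3093 were called lower and 3318 higher in the main test, and 2568 and 3797 with upper-quartile factors. The counts were 3244 and 3439 with DESeq2, 3085 and 3313 with RLE factors, and 3098 and 3337 with limma-voom. With library size alone, 911 of all genes were lower and 7603 higher. Such counts were not made for filterByExpr, the 0.01 threshold, every row tested or an animal left out. Testing every row with at least 1 count left 37 lower (22 large, 12 small) and a median of -0.23 (large -0.24). Library size alone gave 3 lower and 25 higher (3 large and 0 small lower) and turned the medians of all members, the large and the small subunit to 0.15 and of the factors to 0.26, and the log2 ratio of summed levels to 0.15. With upper-quartile factors the median was -0.25 (large -0.25) and that log2 ratio -0.25. On the deposited rlog values, which shrink differences, the medians were -0.18 (-0.185 over all members, -0.183 large, -0.186 small). Without shared rows the log2 ratio of large to small was -0.089 (-0.028 with them). With shared rows kept, this ratio ran from -0.040 without Control 32 to -0.015 without Control 10. It was -0.061 when medians of log2 CPM over genes replaced the sums. Apart from the construction of these settings, the cause was not tested.

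Signs turned with library size alone for 67 of the 83 genes, among them TUFM (0.0055), GFM1 (0.34), GFM2 (0.42), MTIF2 (0.26), MTIF3 (0.43), MRPS30 (0.11), MRPS36 (0.11), MRPS18A (0.21), MRPS18B (0.12), MRPS18C (0.22), MRPL58 (0.47), MRPS15 (0.029), MRPS16 (0.037), MRPS9 (0.044), MRPS5 (0.061), MRPS24 (0.39), MRPS34 (0.44), MRPL30 (0.17), MRPL53 (0.20), MRPL23 (0.28), MRPL34 (0.26) and MRPL2 (0.067). Values near 0 also turned with upper-quartile factors for GFM2 (0.017), MTIF3 (0.029), MRPL58 (0.070) and MRPS34 (0.037), with every row tested for GFM2 (0.032), MTIF3 (0.039), MRPL58 (0.083), MRPS24 (0.0054) and MRPS34 (0.054), and with limma-voom for MRPL58 (0.00085). With an animal left out the ranges were -0.19 to 0.0027 for GFM1, -0.14 to 0.036 for GFM2, -0.13 to 0.043 for MTIF3, -0.051 to 0.036 for MRPL58, -0.014 to 0.11 for MRPL14 and -0.10 to 0.098 for MRPS34. No paired analysis was possible because the animal numbers are not shared between the groups. MRPL42, at 17 to 40 counts, is the gene whose value depth limits most.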

Other observations

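Beyond translation, the machinery that brings the ribosomal proteins into the organelle was measured as well. Of 23 import genes, 12 were lower and 0 higher with TMM scaling (2 and 12 with library size alone), at a median log2 fold change of -0.24. They ran from TIMM10, a chaperone of the intermembrane space whose count row also carries SLC43A1, at -1.60 ± 0.19 (edgeR adjusted p = 2.14e-05) to TIMM21 at 0.16 ± 0.17 (adjusted p = 0.452). Of 14 mitochondrial chaperones and proteases, 9 were lower and 1 higher with TMM scaling (1 and 6 with library size alone), at a median of -0.27. The lowest was CLPX, the unfoldase of the ClpXP protease, at -1.04 ± 0.12 (adjusted p = 1.02e-05), and the highest was GRPEL2, a nucleotide exchange factor of mitochondrial HSP70, at 0.37 ± 0.08 (adjusted p = 0.00166).

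Among 14 regulators of mitochondrial biogenesis, 4 were lower and 3 higher with TMM scaling (0 and 7 with library size alone), and the median was -0.05, so that the shares called were near those over all genes with TMM scaling (26% lower and 27.9% higher). The lowest was TWNK, the helicase that replicates mitochondrial DNA, at -0.45 ± 0.08 (edgeR adjusted p = 0.000395). The highest was MYC, a growth-linked transcription factor, at 2.41 ± 0.23 (adjusted p = 3.26e-06); its level was 3.06 ± 1.15 CPM in the 6 controls and 16.2 ± 2.2 in the 6 NASH animals (SD). How these genes relate to the level of the mitochondrial ribosome was not tested.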
